A study of Mus musculus with 18 samples.

Results

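The genes described here encode the proteins of the cytosolic ribosome. They were taken from the count table by symbol: Rpl or Rps followed by a number, together with Rplp0, Rplp1, Rplp2 and Rpsa, and without the Rps6k kinases and Rps19bp1, which are not ribosomal proteins. The rule took 92 of 24062 rows. Of these, 77 were core genes (31 of the small subunit and 46 of the large subunit, stalk proteins included), 9 were paralogues of a core gene and 6 were pseudogene copies.

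The libraries were poly(A)-selected RNA-seq of C57BL/6 mice that were wild type (WT) or carried 1 mutant allele of Chd2 (Chd2+/-, called HET here). Chd2 encodes a chromatin remodeller of the CHD family. Tissue came from the medial ganglionic eminence (MGE, the embryonic source of many cortical interneurons) at E13.5, from E13.5 cortex and from P45 hippocampus. The 6 combinations of tissue and genotype had 3 libraries apiece, 18 in all, with 26841671 to 38802765 counts each. The labels do not say how the mutant allele was made, whether animals were pooled or whether libraries of a group came from separate animals, so p-values measure the spread between these libraries, which may be technical. Tissue and age changed together between the embryonic and the hippocampal samples, and their contributions cannot be told apart.

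The summed markers of each labelled region were highest in the libraries of that region. Camk2a, Prox1 and Neurod6 summed to 5723 to 6883 CPM in hippocampus. They were not confined to it, with 1073 to 1230 CPM in WT cortex and 543, 504 and 1155 CPM in cortex HET 1 to 3. Emx1, Eomes, Neurog2 and Tbr1 summed to 1103 to 1336 CPM in the cortical libraries and to at most 89.6 CPM in the others. Nkx2-1, Lhx6 and Lhx8 summed to 1385 to 1761 CPM (counts scaled to library size) in the MGE libraries and to at most 23.3 CPM in the cortical ones. Chd2 was lower in each HET library than in any WT library of its tissue, with log2 fold changes of -0.24 in MGE, -0.22 in cortex and -0.17 in hippocampus, none of which passed adjustment over all genes (adjusted p = 0.980, 0.578 and 0.191, edgeR). All 3 WT libraries of the MGE had Xist at 1736 to 1900 CPM, the 3 HET libraries at 0.490 to 1.08 CPM, so genotype and sex cannot be told apart in that tissue. The cortex was mixed, and all 6 hippocampal libraries had Xist at 523 to 682 CPM. Cortex HET 3 stood apart from cortex HET 1 and HET 2, and the comparisons that use HET cortex are given with and without it.

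Each ribosome is built from a small subunit, which reads the mRNA, and a large subunit, which joins amino acids. Nearly every core protein is present in a single copy per ribosome, while the acidic proteins P1 and P2 (Rplp1, Rplp2) bind as dimers to P0 (Rplp0) and form the stalk that recruits elongation factors. The mRNAs of these proteins are the classical terminal oligopyrimidine (TOP) mRNAs: they begin with a cytidine followed by a run of pyrimidines, through which mTOR signalling and LARP1 control their translation. Ribosome production is high in dividing and growing cells of the embryonic brain.

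The start sites show how far the annotation of these genes carries that signature. RefSeq (GRCm38.p6, which has the coordinates of mm10) gave a promoter sequence for 66 of the 92 genes and 57 of the 77 core genes. A run of at least 8 C or T bases on the transcribed strand, touching the 5 bases on either side of the annotated start, was present in 22 of 57 core genes (38.6%). The same run was present in 1873 of 16781 genes of the table with a promoter (11.2%) and in 10.3% of 68 mitochondrial ribosomal protein genes. In 13 of the 22 core genes the run began with C, beside 1169 of the 1873 genes of the table, so this count does not set the core genes apart. A run of C or T is a description of these letters and not a mapped transcription start, and an annotated start that is a few bases off changes the result. The windows below hold 15 bases before and 15 bases from the annotated start, 5′ to 3′ on the gene's strand. Capitals mark the longest run of C or T that touches the 5 bases on either side of the start, which need not include the start itself. The 20-base run of Rpl27a goes on past the end of its window. They were chosen to set genes with a long run beside genes without one. All but Rpl27a and Fau, shown for their long runs, are among the genes named below for their large or small change between tissues.
Rpl35, chr2:39005117-39005146, minus strand: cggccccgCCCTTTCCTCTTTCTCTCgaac
Rpl27a, chr7:109519180-109519209, plus strand: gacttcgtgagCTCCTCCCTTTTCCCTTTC
Rpl18, chr7:45718056-45718085, plus strand: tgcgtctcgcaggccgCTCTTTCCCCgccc
Rps26, chr10:128626492-128626521, minus strand: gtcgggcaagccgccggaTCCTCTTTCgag
Rplp2, chr7:141447636-141447665, plus strand: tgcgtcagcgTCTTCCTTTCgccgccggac
Rplp0, chr5:115559452-115559481, plus strand: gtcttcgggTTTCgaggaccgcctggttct
Rps4x, chrX:102189377-102189406, minus strand: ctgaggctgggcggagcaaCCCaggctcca
Rps15, chr10:80292416-80292445, plus strand: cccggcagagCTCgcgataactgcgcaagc
Rps2, chr17:24720048-24720077, plus strand: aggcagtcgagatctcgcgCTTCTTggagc
Fau, which encodes a ubiquitin-like protein fused to a small subunit protein and lies outside the symbol rule, has a run of 16 bases.
Fau, chr19:6057932-6057961, plus strand: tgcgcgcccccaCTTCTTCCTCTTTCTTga

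Ribosomal protein genes took 5.29% ± 0.25 (SD, n = 3) of all counts in WT MGE, 7.54% ± 0.23 in WT cortex and 1.29% ± 0.04 in WT hippocampus. In HET libraries the shares were 5.11% ± 0.58, 7.17% ± 1.21 and 1.40% ± 0.05. The WT cortex share was 5.84 times the WT hippocampus share and 1.42 times the WT MGE share. No hippocampal library reached the lowest embryonic share. The spread was widest in HET cortex, where the single libraries gave 6.39%, 6.55% and 8.56%. In bulk tissue, fewer cells with high expression and less RNA per cell cannot be told apart, and a share of counts says nothing of the total RNA of a cell.

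**Figure D1:**
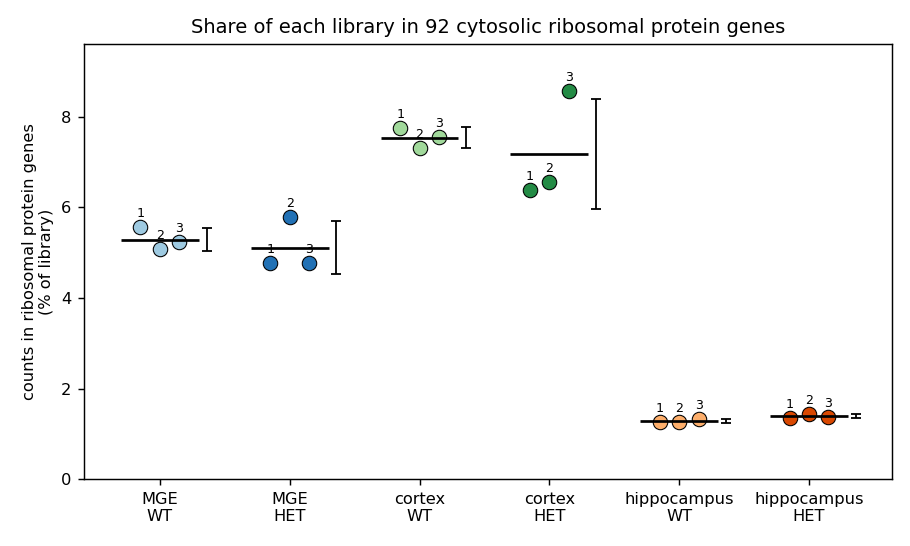
Share of each library's counts in the 92 ribosomal protein genes (y axis, %), by tissue and genotype (x axis). Points are libraries, numbered by replicate; lines are means and bars at the side are ± SD over 3 libraries. The 6 hippocampal libraries sit between 1.26% and 1.45%, and cortex HET 3 is the highest of all at 8.56%.

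Of the 77 core genes, 73 had a mean level of at least 10 CPM. In WT cortex these 73 ranged from 209 CPM (Rplp2) to 2510 CPM (Rplp0), with a median of 913 CPM. In WT hippocampus they ranged from 48.7 CPM (Rpl39) to 484 CPM (Rpl3), with a median of 169 CPM. Per kilobase of merged exons, averaged over the WT groups, the highest levels were those of Rplp1 (1577 CPM per kb), Rps15 (988), Rpl23a (948), Rplp0 (902) and Rps3a1 (832). The lowest of the 73 were Rps15a (72.0 CPM per kb), Rps19 (78.7), Rpl35a (88.9), Rplp2 (93.7) and Rpl22 (106). This order depends on the exons counted as the gene: with the longest annotated transcript as the length, Rplp2 rose to 201 CPM per kb and Rps19 to 139, while Rplp1 stayed first.

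The remaining 4 core genes were near 0 in every library. Rpl26, a large subunit protein, was listed at 0 counts in all 18 libraries. Rps27 had 0.453 to 1.79 CPM in single libraries, Rpl34 had group means of 0.871 to 2.17 CPM, and Rpl30 stayed under 0.451 CPM in each library. These genes share sequence with other annotated genes. Of the 50-base words of their transcripts, 61.0% (Rpl26), 76.4% (Rpl30), 37.9% (Rpl34) and 98.6% (Rps27) also occur in transcripts of other genes. The same share had a median of 55.5% and a range of 0 to 95.1% over the other 73 core genes, and 17 of these with at least 80% shared words still had mean levels of 243 to 1075 CPM. How reads that fit several places were counted is not given in the sources used here, so the values of these 4 genes are a property of the table and are not read as low expression.

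Between E13.5 cortex and P45 hippocampus of WT mice, every core gene with a measurable level fell. Of 85 ribosomal protein genes that passed the filter on low counts, 79 were lower in hippocampus and none was higher at an adjusted p under 0.05 (edgeR quasi-likelihood F test, Benjamini-Hochberg over all genes). Among all 15448 genes tested, 40.9% were lower and 41.1% higher. All 73 core genes above 10 CPM were among the 79. Their falls had a median of 5.34-fold and ranged from 1.86-fold to 10.05-fold, with 56 of the 73 between 4-fold and 8-fold. The core median was -2.41 on the log2 scale, against 0.00 for all genes. Small subunit genes had a median log2 change of -2.54 and large subunit genes of -2.40.

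Rplp0 (chr5:115559467-115563727), the stalk base, fell most. Its levels were 2580, 2411 and 2540 CPM for WT cortex against 228, 247 and 256 CPM for WT hippocampus. The log2 fold change was -3.33 (SE 0.07, adjusted p = 4.11e-11), with no overlap between the groups. Rps26, a protein at the mRNA exit channel, went from 914, 917 and 940 CPM to 108, 102 and 114 CPM (log2 fold change -3.06). Rps20 (-3.02), Rpl32 (-2.98), Rpl7 (-2.94), Rpl18 (-2.94), Rpl35 (-2.92) and the X-linked Rps4x (-2.92) completed the 8 largest falls. Rpl5 and Rpl11, which also bind and inhibit MDM2 when ribosome assembly is disturbed, changed by -2.73 and -2.42. Rpsa, which has also been described as a laminin receptor, went from 2268 to 381 CPM on average (-2.54).

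The smallest falls among the expressed core genes were those of the other stalk proteins. Rplp2 went from 200, 240 and 185 CPM in WT cortex to 99.6, 109 and 120 CPM in WT hippocampus (log2 fold change -0.89, SE 0.11, adjusted p = 3.01e-05). Rplp1 went from 1274, 1210 and 1148 CPM to 445, 445 and 467 CPM (-1.38, SE 0.06, adjusted p = 8.74e-09). In both genes every hippocampal library was below every cortical one. Rpl3, close to the peptidyl transferase centre, changed by -1.51, Rps21 by -1.61, Rps15 by -1.67, Rps2 by -1.71 and Rpl9 by -1.73. The levels of the stalk mRNAs relative to each other differed between the tissues: Rplp1 stood at 2426 CPM per kb against 1513 for Rplp0 in WT cortex, and at 906 against 147 in WT hippocampus. As a share of the Rplp0 CPM within each library, Rplp1 was 48.2% ± 2.7 in WT cortex, 40.2% ± 4.0 in WT MGE and 186% ± 8 in WT hippocampus (SD, n = 3).

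**Figure D2:**
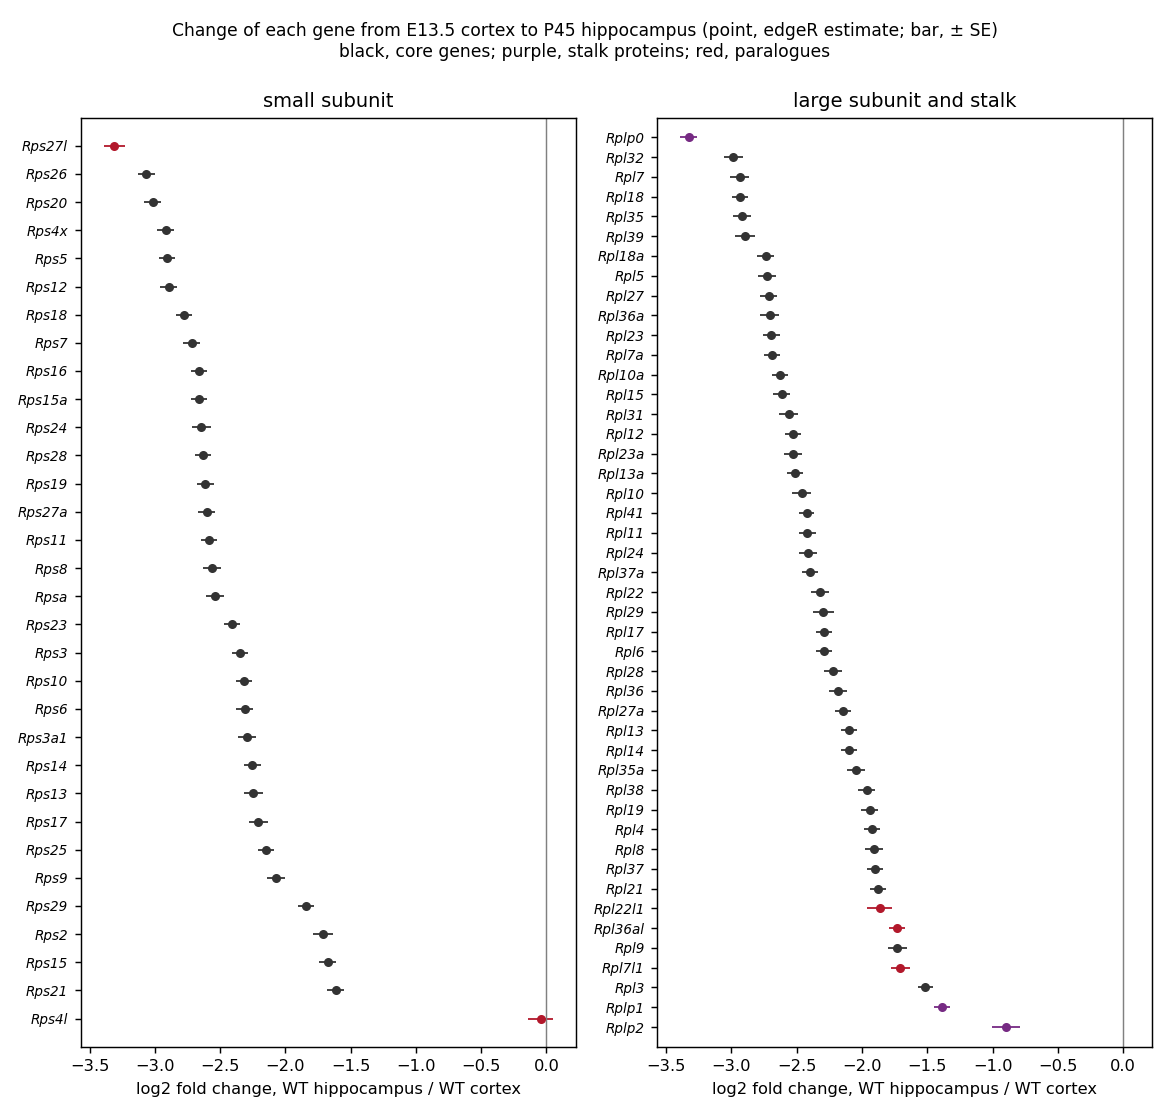
Log2 fold change of WT hippocampus over WT cortex (x axis) for each ribosomal protein gene (y axis), small subunit at left and large subunit with stalk at right; the 73 core genes above 10 CPM and 5 paralogues are shown. Points are edgeR estimates and bars ± SE; Rplp0 (-3.33) and Rplp2 (-0.89) mark the ends of the core range, and the paralogue Rps4l is at -0.04.

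Start sites with and without a long run were found at both ends of this range. The 22 core genes with a C or T run of at least 8 bases had a median log2 change of -2.27, and the 34 tested core genes with a shorter run had -2.44. The first set includes Rps27 and Rpl34, which had very low counts in every library and are not read as expression above. The second set includes neither. Values of these genes enter the first median. Rps26 and Rplp2 both carry such a run and lie at opposite ends, and Rplp0 and Rps2 both lack it. These medians are a description, with no test.

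Paralogues were tested beside their parent genes. Rps27l, a paralogue of Rps27 known as a p53 target, fell from 105, 99.4 and 106 CPM in WT cortex to 9.63, 9.53 and 11.3 CPM in WT hippocampus (log2 fold change -3.31, adjusted p = 1.29e-10). Rpl22l1 (-1.86), Rpl36al (-1.73) and Rpl7l1 (-1.71) also fell. Relative to the CPM of the parent gene in the same library, Rpl36al stood at 40.3% ± 0.9 of Rpl36a in WT cortex and 79.5% ± 4.0 in WT hippocampus, and Rpl7l1 at 8.66% ± 0.91 and 20.3% ± 1.4 of Rpl7. Rps4l (chr6:148354656-148355598), a copy of Rps4x on an autosome that GENCODE lists as a transcribed processed pseudogene, had 30.8, 33.8 and 29.6 CPM in WT cortex and 30.8, 31.3 and 27.1 CPM in WT hippocampus. Its groups overlapped (log2 fold change -0.04, SE 0.10, adjusted p = 0.681). Rpl10l and Rps27rt were listed at 0 counts in all libraries, and Rpl3l, a striated muscle paralogue, and Rpl39l stayed under 0.4 CPM in every group mean.

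Between WT cortex and WT hippocampus, initiation factor, ribosome biogenesis and mitochondrial ribosomal protein genes had medians closer to 0 than the core genes. Among all genes tested, 40.9% were lower in hippocampus and 41.1% were higher. Fau and Gnb2l1 (Rack1), which encode ribosomal proteins outside the symbol rule, were both lower in WT hippocampus (-1.99 and -3.06). Of 41 initiation factor genes tested, 36 were lower and 2 higher, with a median of -0.97; Eif4a1, the helicase of the cap-binding complex, changed by -2.39. Of 77 ribosome biogenesis genes, 66 were lower and 4 higher, with a median of -1.06; Npm1, the nucleolar protein nucleophosmin, changed by -3.31. Of 77 mitochondrial ribosomal protein genes, 63 were lower and 5 higher, with a median of -0.76. Of 12 elongation factor genes, 8 were lower and 3 higher. Eef1a1, the elongation factor that delivers aminoacyl-tRNA, went from 10963 ± 219 to 2291 ± 122 CPM, and its adult neuronal and muscle form Eef1a2 from 21.4 ± 2.6 to 888 ± 27 CPM (SD, n = 3). Of 22 TOP regulators, 12 were lower, among them Mycn (-3.69), and 6 were higher, among them Larp1 (0.72).

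Cell composition moved with this contrast. The summed level of 7 of 7 cycling progenitor markers (Mki67, Top2a and others) was 2367 to 2516 CPM in WT cortex and 58.0 to 67.8 CPM in WT hippocampus. The 5 of 5 oligodendrocyte markers summed to 35.7 to 38.3 and 6069 to 7675 CPM, and the 5 astrocyte markers to 315 to 376 and 3743 to 4140 CPM. The part of these shifts in the ribosomal protein changes was not tested.

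Ribosomal protein genes were also lower in WT hippocampus than in WT MGE. Of 84 ribosomal protein genes tested, 82 were lower and none higher (41.7% of all genes were lower and 41.9% higher), with a core median of -1.98. Rplp0 (-2.85), Rps4x (-2.62) and Rps26 (-2.58) had the largest core falls, and Rplp1 the smallest among the expressed core genes (-0.64, adjusted p = 5.98e-05). This comparison shares its hippocampal libraries with the one above. Rps4l was slightly lower here (36.5 against 29.7 CPM, log2 fold change -0.31, adjusted p = 0.0217).

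Between the E13.5 regions of WT mice, ribosomal protein genes were higher in cortex than in MGE. Of 84 tested, 76 were higher and 1 was lower, where 24.5% of all genes were higher and 24.9% lower. The core median was 0.51 on the log2 scale. Rplp1 had the largest difference among genes above 10 CPM, with cortical libraries at 1274, 1210 and 1148 CPM against 789, 673 and 632 CPM for MGE (log2 fold change 0.79, SE 0.09, adjusted p = 5.33e-05). Rpl39 (0.78), Rpl41 (0.75), Rpl29 (0.69), Rps21 (0.67), Rps20 (0.67) and Rps28 (0.67) followed. Rps27 passed the test at 1.05, at about 1 CPM.

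Rplp2 went the other way, with WT cortex at 200, 240 and 185 CPM against 286, 272 and 234 CPM for WT MGE. The highest cortical library was above the lowest MGE library, and the log2 fold change of -0.34 (SE 0.11) had an adjusted p of 0.0224; in a single fit of all 18 libraries no ribosomal protein gene was lower. Rps9, a small subunit protein, measured 704, 784 and 733 CPM for cortex against 748, 634 and 785 CPM for MGE (0.03, adjusted p = 0.774), and Rpl7l1 was at 0.03 with the same adjusted p. Cycling progenitor markers were higher in WT MGE (3817 to 4307 CPM) than in WT cortex (2367 to 2516 CPM). Red blood cell markers reached 1184 CPM in MGE WT 1 against at most 448 CPM in the other WT embryonic libraries. Meningeal markers (Col1a1, Dcn and others) summed to 361 to 591 CPM in WT cortex and 21.9 to 32.7 CPM in WT MGE. Choroid plexus markers summed to 1472, 3.93 and 1146 CPM in WT cortex and to 1.19 to 5.92 CPM in WT MGE. The part of these markers in the result was not tested.

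In HET mice, too, ribosomal protein genes were lower in hippocampus. Against HET cortex, 82 of 84 ribosomal protein genes were lower (39.9% of all genes), with a core median of -2.26; without cortex HET 3, 82 were lower and the core median was -2.09. Against HET MGE, 81 of 84 were lower (41.8% of all genes), with a core median of -1.83. Over 75 core genes the WT and HET log2 changes between hippocampus and cortex had a Pearson r of 0.96, against 0.97 over all genes, across genes that share libraries and are not independent replicates. Rplp0 was again at the lower end (-3.29) and Rplp1 at the upper end (-1.35). Rplp2 changed by -1.52 in HET and by -0.89 in WT. The edgeR test of that difference gave -0.59 (SE 0.21, adjusted p = 0.333), and without cortex HET 3 -0.73 (SE 0.18, adjusted p = 0.0119). Cortex HET 3 had the lowest Rplp2 of the HET cortex libraries (377, 298 and 228 CPM for HET 1 to 3). Leaving it out raises their mean, so the value without it follows in part from that choice and is a description.

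Between HET cortex and HET MGE, 31 of 84 ribosomal protein genes were higher and 1 lower (Rps4l, -0.46, adjusted p = 0.0306), against 14.6% and 11.4% of all genes. The core median of 0.47 was close to that of WT, but the count depended on the libraries and the fit. Leaving out 1 library at a time gave 1 to 31 higher ribosomal protein genes. The count was 1 without MGE HET 3, beside 1298 higher of all 15082 genes tested. It was 2 without MGE HET 1 (1602 of all 15064) and 15 without cortex HET 2 (1635 of all 15074). A replicate block gave 12, beside 1800 higher of all 14831 genes. Without cortex HET 3, 31 were higher and 1 lower (2472 and 2208 of all 15009 genes), with a core median of 0.30. The correlation with the WT changes was 0.63 over 75 core genes, of which 74 had the same sign in both genotypes, and 0.93 over all genes. Rpl22l1 had the largest difference among genes above 10 CPM (0.99, adjusted p = 0.00195; without cortex HET 3, 0.81, also past the threshold), with HET cortex at 109, 104 and 147 CPM against 57.7, 64.7 and 58.3 CPM for HET MGE.

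**Figure D3:**
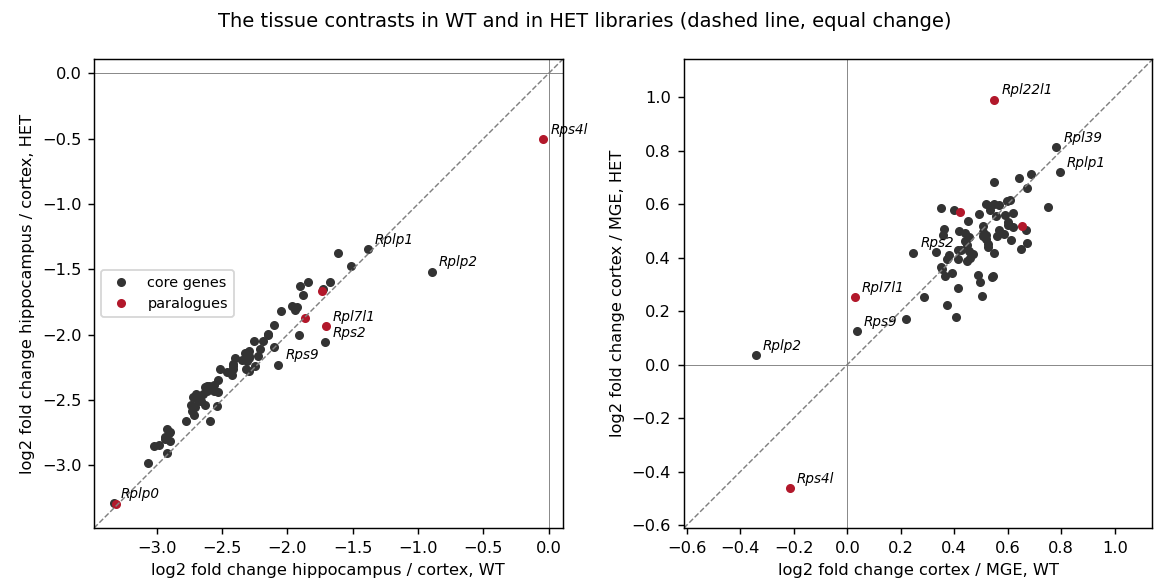
Log2 fold changes of ribosomal protein genes in WT (x axis) and HET (y axis), for hippocampus over cortex (left) and cortex over MGE (right); black, core genes above 10 CPM, red, paralogues, dashed line, equal change. The left cloud runs along the line from Rplp0 to Rplp1, with Rplp2 below it and Rps4l apart at -0.04 in WT and -0.51 in HET; the right cloud is a compact group near 0.5 with Rplp2, Rps9 and Rps4l below it.

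Within tissues, the HET and WT groups were compared to ask whether loss of 1 Chd2 allele goes with another level of these genes. In the hippocampus 1 of 83 ribosomal protein genes tested passed the threshold, as did 1.07% of all genes: Rps4l was lower in HET. Of all genes, 0.811% were lower and 0.262% higher. Rps4l was measured at 30.8, 31.3 and 27.1 CPM for WT against 19.4, 19.2 and 18.2 CPM for HET. Each HET library was below each WT library (log2 fold change -0.65, SE 0.09, adjusted p = 0.00482). Without hippocampus HET 3 the adjusted p was 0.051, at a log2 fold change of -0.62. Its parent Rps4x did not pass the test, at 160, 164 and 175 CPM for WT against 166, 187 and 171 CPM for HET, with overlapping groups (0.07, adjusted p = 0.593). Rps4l was 17.9% ± 2.1 of the Rps4x CPM in WT hippocampus and 10.9% ± 0.7 in HET hippocampus (SD, n = 3).

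In MGE the Rps4l levels overlapped between genotypes (0.02, adjusted p = 0.989), and in cortex the difference was -0.21 (adjusted p = 0.578). The genotype difference in hippocampus was not shown to differ from that in MGE (-0.67, SE 0.15, adjusted p = 0.373) or from that in cortex (-0.43, SE 0.15, adjusted p = 0.330) with edgeR. DESeq2 called 1 ribosomal protein gene in the first of these tests. Of the Rps4l transcript, 17.97% of 50-base words also occur in 1 other gene, so some reads could be counted for either.

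The core genes of the hippocampus were slightly higher in HET, without passing the test. The log2 fold change was above 0 for 71 of 75 core genes, with a median of 0.10 against 0.00 for all genes. In 25 of the 75 every HET library was above every WT library, which held for 9.17% of all genes. Rps15a, at 110, 110 and 115 CPM for WT against 127, 126 and 121 CPM for HET, had the lowest p (0.16, adjusted p = 0.172). Rps3 (0.15, adjusted p = 0.197), Rps20 (0.15, 0.199), Rps16 (0.14, 0.215) and Rpl23 (0.15, 0.220) were next. The share of counts was 1.26% to 1.34% in WT and 1.36% to 1.45% in HET. After scaling the libraries overlapped: the median deviation of the core genes from the tissue mean (log2) was -0.08, -0.08 and 0.02 in WT 1 to 3 and 0.02, 0.08 and 0.04 in HET 1 to 3, with WT 3 slightly above HET 1. Libraries also differed within groups: of the 73 expressed core genes, 36 were lowest in WT 1, 34 lowest in WT 2 and 41 highest in HET 2. The 4 of 4 endothelial markers summed to 99.96 to 104 CPM in WT and 64.0 to 73.6 CPM in HET, with no overlap; Flt1, a receptor of vascular growth factors, was lower in HET (-0.81, adjusted p = 0.000219), and Cldn5 (-0.41), Kdr (-0.40) and Pecam1 (-0.35) did not pass. Oligodendrocyte markers summed to 6069 to 7675 CPM in WT and 6610 to 9617 CPM in HET. The part of either in the result was not tested. Among TOP regulators, Eif4ebp2, a repressor of cap-dependent translation, was lower in HET (27.2, 31.2 and 28.6 CPM for WT against 21.6, 22.1 and 22.4 CPM, log2 fold change -0.39, adjusted p = 0.0367).

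In cortex no ribosomal protein gene passed the threshold between HET and WT with edgeR or DESeq2 (0% of all genes with edgeR). At an unadjusted p under 0.05 there were 3 of 84, against 7.89% of all genes. The core median was -0.06, with 59 of 75 below 0. The 3 HET libraries did not move together: HET 3 was the highest of the 6 cortical libraries in 69 of 73 expressed core genes, while HET 1 was the lowest in 48 and HET 2 in 21. Rps29 shows the pattern, at 757, 699 and 736 CPM for WT against 503, 543 and 801 CPM for HET. Rpl13a measured 1840, 1748 and 1766 CPM for WT against 1384, 1413 and 1906 CPM for HET. In both genes HET 1 and HET 2 were below all WT libraries and HET 3 above them.

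Without cortex HET 3, 46 ribosomal protein genes were lower and 3 higher, against 13% and 17.7% of all 14961 genes tested, and the core median was -0.22. Because HET 3 was the highest library for most core genes, leaving it out lowers their HET mean. These counts follow in part from that choice and are a description. With HET 3 as the only HET library the core median was 0.17. The 3 higher genes were Rplp2, Rps2 and Rpl7l1. In each of them HET 3 was the lowest of the HET libraries, so leaving it out raises their HET mean. Rplp2 measured 200, 240 and 185 CPM for WT against 377, 298 and 228 CPM for HET, so it was highest in HET 1, the library where most core genes were lowest (0.71 without HET 3, adjusted p = 0.00867; 0.54 with all libraries, adjusted p = 0.578). Rps2, a protein at the mRNA entry channel, measured 1410, 1646 and 1407 CPM for WT against 1930, 1909 and 1669 CPM for HET (0.39 without HET 3, adjusted p = 0.00367). Ribosome biogenesis genes went the other way from the core genes without HET 3, with 33 of 77 higher and 4 lower.

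Cell markers moved with the same libraries. For HET 1, HET 2 and HET 3 in that order, cycling progenitor markers summed to 3251, 3294 and 2272 CPM, against 2367 to 2516 CPM for WT. Young neuron markers (Dcx, Tubb3 and others, 5 of 5) gave 2928, 2656 and 3829 CPM, against 3753 to 4247 CPM for WT. Red blood cell markers gave 929, 1150 and 376 CPM, against 295 to 448 CPM for WT. In the young neuron and red blood cell sums HET 3 lay within the WT range, and HET 1 and HET 2 lay outside it. In the cycling progenitor sum HET 3 lay below the WT range, and HET 1 and HET 2 above it. Choroid plexus markers ranged from 3.93 to 1472 CPM in WT and from 8.77 to 420 CPM in HET. The part of these in the differences among cortical libraries was not tested.

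**Figure D4:**
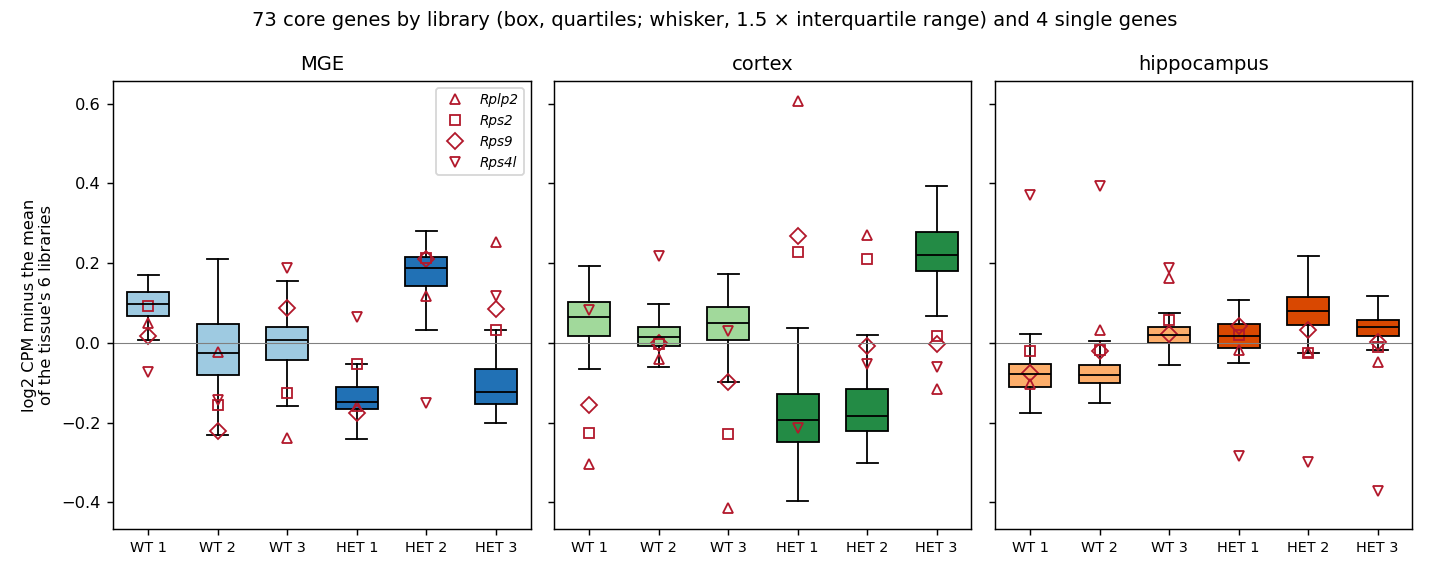
Deviation of log2 CPM from the mean of the tissue's 6 libraries (y axis), by library (x axis), for 73 core genes (boxes, quartiles and median; whiskers, 1.5 times the interquartile range) and for Rplp2, Rps2, Rps9 and Rps4l (red symbols). The boxes of cortex HET 1 and HET 2 lie low and that of HET 3 high, Rplp2 is reversed there, and Rps4l separates the genotypes in hippocampus.

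In MGE no ribosomal protein gene passed the threshold, against 0.0479% of all genes; 1 of 84 had an unadjusted p under 0.05 (4.51% of all genes), and DESeq2 also gave none. The core median was -0.04. MGE HET 2 was the highest library in 57 of the 73 expressed core genes, and HET 1 and HET 3 were the lowest in 35 and 20. Rps7 measured 863, 941 and 871 CPM for WT against 695, 833 and 710 CPM for HET, with no overlap between the groups (-0.26, SE 0.10, adjusted p = 0.980). Rps4x, on the X chromosome, measured 1007, 1050 and 975 CPM for WT against 791, 1003 and 813 CPM for HET (-0.22, adjusted p = 0.980). The X-linked Rpl10 (-0.11), Rpl36a (-0.10) and Rpl39 (-0.08) had smaller differences; WT and HET also differed in sex here, as given above.

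The tests of whether the genotype difference varied between tissues called no ribosomal protein gene with edgeR in any of the 3 pairs of tissues (0% of all genes for cortex less MGE, 0.0124% for hippocampus less cortex and 0.0062% for hippocampus less MGE). The core medians of these differences were -0.02 (cortex less MGE), 0.18 (hippocampus less cortex) and 0.14 (hippocampus less MGE). At an unadjusted p under 0.05 there were 0, 3 and 4 of 86 ribosomal protein genes, against 7.01%, 12.8% and 7.36% of all genes. Without cortex HET 3, the core medians were -0.19 (cortex less MGE) and 0.36 (hippocampus less cortex), and 23 and 60 of 86 had an unadjusted p under 0.05. The share of all genes at that p is not given for these fits, and the shares above are for all libraries. The counts 23 and 60 therefore have no background to be read against. As above, leaving out HET 3 lowers the HET cortex levels of most core genes. For cortex less MGE 1 gene was then called, lower, beside 451 higher and 593 lower of all genes. For hippocampus less cortex, 37 genes were called with a more positive genotype difference in hippocampus than in cortex and 1 with a more negative one, among 1460 and 1331 of all 16319 genes tested.

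**Figure D5:**
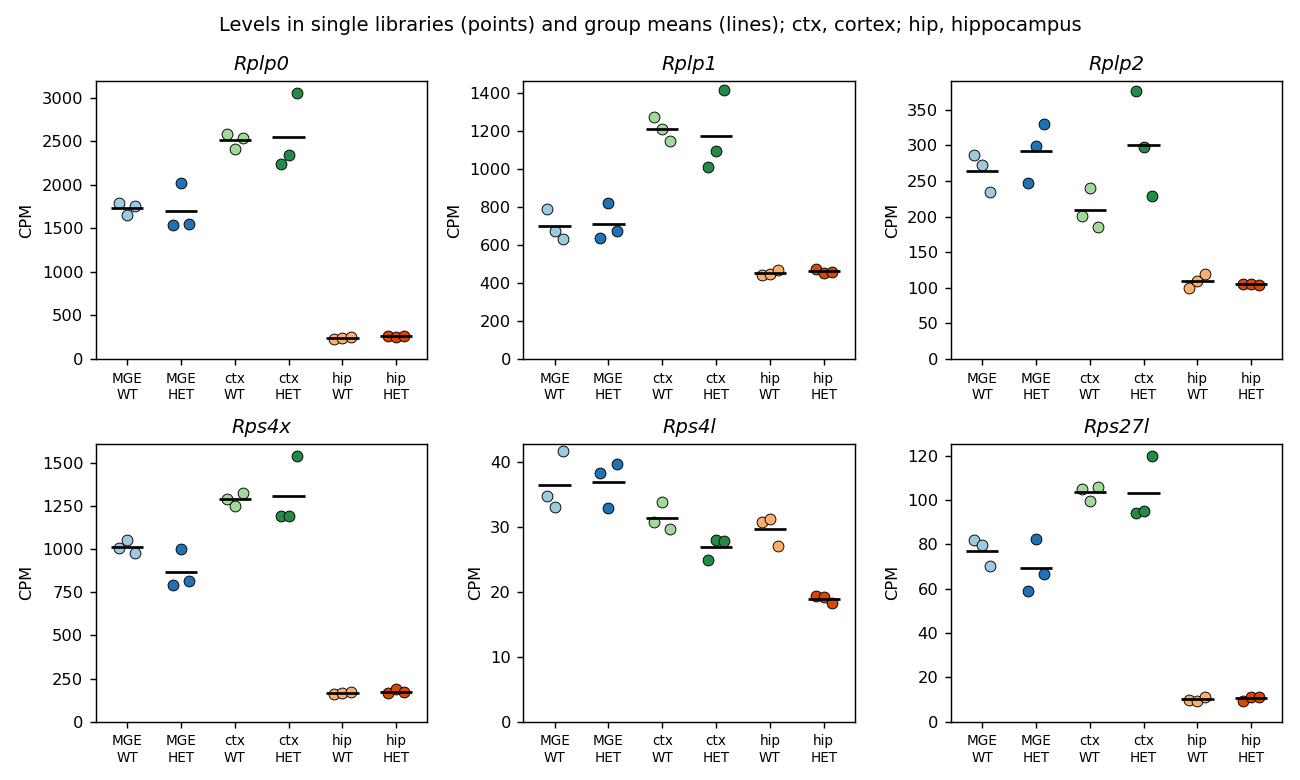
CPM (y axis, from 0) of 6 genes in each library by group (x axis; points, libraries, lines, means of 3). Rplp0, Rps4x and Rps27l fall from WT cortex to WT hippocampus by 3.33, 2.92 and 3.31 on the log2 scale, Rplp1 and Rplp2 by 1.38 and 0.89, and Rps4l stays near 30 CPM in WT hippocampus and is at 18.2 to 19.4 CPM in HET hippocampus.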

How the data were processed

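The authors deposited 1 table of whole-number read counts per gene symbol for the 18 libraries. Per the submitters' processing notes, the tools were, with no roles given, TopHat2 2.1.1, Trimmomatic, FastQC, DESeq2 and SAMtools, on build mm10. How reads were counted per gene, on which annotation, with which strand setting and with what treatment of reads that fit several places was not given in the sources used here.

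Counts were tested with edgeR 4.0.16 in R 4.3.3 (robust quasi-likelihood F test, filterByExpr with a minimum count of 10 and total of 15, TMM scaling, Benjamini-Hochberg over all genes tested, threshold 0.05), each comparison fitted on its own 6 libraries and the tests of genotype differences between tissues on all 18. CPM were TMM-scaled over all 18 libraries. Lengths and coordinates came from GENCODE M21 (mm10), start sites from RefSeq. Named genes were the 8 largest changes in each direction of a tissue comparison among core genes past the threshold, the 5 of each genotype comparison, all paralogues, the stalk proteins, the extremes per length, the X-linked genes and up to 4 genes of each other list; Rpl5, Rpl11 and Larp1 were added after their values were seen. The genes and lists were chosen with earlier results of these data known. On simulated data with 200 changed genes, the test recovered 12% of 1.5-fold and 47% of 2-fold changes in cortex HET against WT, 64% and 84% in hippocampus, and 63% and 79% in WT hippocampus against cortex. Of the genes called there, 9.23%, 10.3% and 6.58% in that order were unchanged ones. In WT cortex against MGE 11.4% were. These shares lie above the threshold of 0.05. The real tissue comparisons called many more genes than the 200 changed in the simulation. Alternatives were RLE scaling, scaling without the ribosomal protein genes, no filter, DESeq2 1.42.0, 1 fit of all libraries, a replicate block and leaving out each library.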

Additional observations from a re-analysis of the deposited data

How the results depend on the processing

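The fall of core genes from embryonic tissue to hippocampus kept its direction and its count of lower genes, within 1.5 times, under each alternative that was run. For both genotypes and both embryonic tissues, 1 gene was higher in hippocampus with no filter on low counts and in 1 fit of all 18 libraries (Rpl3l, under 0.4 CPM). In WT cortex against MGE, 0 genes were lower in the fit of all libraries. HET cortex against MGE depended most on the fit: 54 genes were called with DESeq2 (53 higher), 72 in the fit of all libraries (71 higher), and 65 (65 higher, 0 lower; core median 0.73) without cortex HET 1 and HET 2. Calls over all genes are not given beside the counts of these fits. A rise particular to ribosomal protein genes can therefore not be read from them. The fit without cortex HET 1 and HET 2 has cortex HET 3 as its lone HET cortex library. That library is assumed to vary like the MGE group, so the calls of this fit describe that library. Without those libraries the core median was 0.17 in cortex HET against WT and -2.54 in HET hippocampus against cortex, where 1 gene was then higher; the genotype difference had a core median of 0.22 for cortex less MGE and, reversed, of -0.081 for hippocampus less cortex. DESeq2 called 1 gene, lower, in the genotype difference of hippocampus less MGE. The cause of these shifts was not tested.

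Replicate numbers did not pair the libraries: in no comparison did all 3 same-numbered pairs correlate above 0.1. With the number as a replicate block, HET cortex against MGE had 12 genes called (12 higher, 0 lower), beside 1800 higher and 1382 lower of all genes. Rps4l in hippocampus HET against WT stayed below the threshold in that fit (adjusted p = 0.0151). In WT cortex against MGE all 3 libraries correlated best with their own number.

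Leaving out 1 library at a time gave these ranges. Cortex HET against WT had 0 to 49 genes called (0 to 3 higher, 0 to 46 lower; core median -0.22 to 0.00). HET cortex against MGE had 1 to 32 called (1 to 31 higher, 0 to 1 lower; median 0.30 to 0.57). The genotype difference of hippocampus less cortex had 0 to 38 called (0 to 37 higher, 0 to 1 lower; median 0.10 to 0.36) and that of cortex less MGE 0 to 1 (0 to 1 lower; median -0.19 to 0.092). Hippocampus HET against WT had 0 to 1 called and 0 to 1 lower. The MGE HET against WT median was -0.14 to 0.02. WT cortex against MGE had 0 to 1 lower, and WT hippocampus against cortex and against MGE and HET hippocampus against MGE each had 0 to 1 higher. Core medians were -1.99 to -1.92 in WT hippocampus against MGE, -2.33 to -2.09 in HET hippocampus against cortex and -1.88 to -1.71 in HET hippocampus against MGE. Per length, 8 of the 10 levels given moved by more than the replicate SD with the longest transcript.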
